A study of Mus musculus with 24 samples.

Results

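The 41 genes described here are the core machinery of macroautophagy and the main lysosomal membrane proteins, proteases and transcription factors that serve it. They were chosen by gene name in the expression files, all 41 were found among 54733 genes listed, and each averaged at least 1 FPKM (mapped fragments scaled to transcript length and to the size of the library) over the libraries, as did 11244 genes in all. They comprised 5 genes of the initiation complex, 6 of the phosphatidylinositol 3-kinase (PI3K) nucleation complex, 5 of the lipid transfer and WIPI step, 9 of the conjugation machinery, 5 ATG8 family members, 4 cargo receptors, 2 TFE transcription factors, 2 lysosomal membrane proteins and 3 lysosomal proteases. The libraries were poly(A) RNA-seq of whole liver from male C57BL/6 mice, either wild type (WT) or homozygous for a deletion (ΔRRE) that removes both RREs, the ROR and REV-ERB binding elements of *Bmal1*. Livers were taken at projected circadian time (CT) 2, 6, 10, 14, 18 and 22 from mice kept in constant darkness with free access to chow, with 2 livers per genotype and time and so 12 per genotype. The mutant mice came from 1 edited line unless the study stated otherwise, WT littermates served as controls, and the mice were 8 to 24 weeks old. The comparison asks whether autophagy and lysosome transcripts keep their daily course and level when the REV-ERB and ROR input to *Bmal1* is cut.

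Autophagy encloses cytoplasm in a double membrane and delivers it to lysosomes. The ULK1 complex starts the process, a PI3K complex built on VPS34 and Beclin 1 marks the site with lipid, WIPI and ATG2 proteins and the ATG9A scramblase extend the membrane, and 2 ubiquitin-like conjugation systems attach ATG8 proteins to it. Receptors such as p62 tie cargo to ATG8 proteins, and cathepsins digest the cargo after fusion. In liver, autophagy supplies amino acids, fatty acids and glucose between meals and is known to follow a daily course, and TFEB and TFE3 are transcription factors that switch on autophagy and lysosome genes together.

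Total FPKM per library was 554170 to 624746 in WT livers and 556432 to 590725 in the mutant livers, and since the files carry no read counts the depth behind each value is unknown. Replicate livers correlated across genes with Pearson's r of 0.955 to 0.974. *Bmal1*, listed as *Arntl*, followed its labels. It had a fitted amplitude of 2.57 ± 0.24 log2 units in WT (SE, n = 12), where both CT10 livers were below 0.2 FPKM and the CT2 livers were at 12.6 and 13.2, and of 0.29 ± 0.24 in ΔRRE, where no liver was below 2 or above 4.21 FPKM. The clock genes *Dbp*, *Nr1d1* and *Per2* varied over the day in both genotypes, with amplitudes of 1.71 to 3.65 log2 units in WT and 2.09 to 3.15 in ΔRRE. Hepatocyte markers dominated every library, and the 6 Kupffer cell markers summed to a median of 40.0 FPKM in WT and 37.5 in ΔRRE. Erythroid transcripts set 2 libraries apart, namely ΔRRE CT10 replicate 1 and ΔRRE CT14 replicate 1, whose sums of 2765 and 2819 FPKM compared with at most 1260 in any other library. Of the 41 genes, 18 overlap a gene on the opposite strand and 10 share stretches of at least 150 bases at 95% identity or more with transcripts of other genes, and whether strand was used in the quantification is not given in the sources used here. In bulk liver, fewer cells of a type and less RNA per cell cannot be told apart.

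Because BMAL1 binds E-boxes (CACGTG) and TFEB and TFE3 bind the same core, the promoters were searched for that sequence on both strands from 250 bases before to 50 after each start site. Of the 41 genes, 34 had an entry in the RefSeq promoters (GRCm38.p6), and 8 of those 34 held CACGTG (23.5%, against 8.09% of all genes with an entry). They were *Atg3*, *Atg5*, *Atg7*, *Atg14*, *Bnip3*, *Ctsd*, *Ctsl* and *Lamp1*, and *Lamp1* held 3 copies. Of the 34, 11 had a daily rhythm by the joint test described below, and 3 of these 11 held CACGTG, beside 8 of all 34. The longer TCACGTGA, which contains the E-box, was present in *Atg3* and *Ctsd* and in 1.12% of all genes with an entry. The D-box TTATGTAA and the RRE itself were found in none of the 34, against 1.11% and 0.459% of all genes with an entry. The core AGGTCA of the RRE was found in 6 (17.6%, against 18.1% of all genes with an entry). The shares of all genes with an entry include genes that averaged under 1 FPKM in these livers, whereas all 41 averaged at least 1 FPKM. A match is a description of the sequence, not evidence of binding. The windows of the E-box genes with a daily rhythm called below, and of *Atg3* for the longer form, are shown 5′ to 3′ on the strand of the gene with the E-box in capitals.
*Atg7*, chr6:114670952-114670981, plus strand: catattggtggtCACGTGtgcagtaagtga
*Bnip3*, chr7:138909597-138909626, minus strand: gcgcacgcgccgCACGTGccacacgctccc
*Ctsl*, chr13:64370739-64370768, minus strand: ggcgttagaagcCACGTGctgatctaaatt
*Atg3*, chr16:45158746-45158775, plus strand: ggagagtcgagtCACGTGaggccttaggtg
The *Bnip3* and *Atg3* windows lay upstream of the gene in GENCODE M21 (GRCm38), the *Atg7* window in an intron of transcripts that start further upstream, and the *Ctsl* window in an exonic untranslated part of 1 of 2 transcripts spanning it. The E-box began at position -132 from the RefSeq start site in *Atg7*, -108 in *Bnip3*, -236 in *Ctsl* and -71 in *Atg3*. On the same build, *Atg101* lies at chr15:101284272-101290945, *Sqstm1* at chr11:50199366-50210827, *Bnip3* at chr7:138890836-138909519, *Gabarapl1* at chr6:129533160-129542346 and *Ctsl* at chr13:64359337-64370890, and all 5 are protein-coding.

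Each gene was fitted with a 24-h wave on log2(FPKM + 0.1) with limma, and p-values were adjusted by the Benjamini-Hochberg method over the 11244 genes that averaged 1 FPKM or more, with a call at an adjusted p under 0.05. In WT, 11 of the 41 genes were called rhythmic (26.8%), against 10.3% of all genes tested. These were *Ulk1*, *Atg101*, *Rb1cc1*, *Wipi1*, *Wipi2*, *Atg7*, *Gabarapl1*, *Sqstm1*, *Bnip3*, *Tfeb* and *Ctsl*. In ΔRRE, only *Atg101*, *Sqstm1* and *Bnip3* were called (7.32%, against 4.57% of all genes). A joint test of a wave in either genotype called 13 genes (31.7%, against 18.7%), which added *Pik3c3*, *Atg4d* and *Lamp2* and left out *Ulk1*, at an adjusted p of 0.0505. A call in WT without one in ΔRRE does not show that a gene differed between them. The direct test of a different wave called none of the 41 (limma, against 0.00889% of all genes), and 1 passed at an unadjusted p under 0.05, against 2.84% of all genes. The 1 gene this test called among all genes was *Arntl*, at a limma adjusted p of 0.0463. Its amplitudes were 2.57 log2 units in WT and 0.29 in ΔRRE, so smaller changes of wave could go uncalled. By the study's 3 criteria, with the harmonic p in place of the study's own periodicity test, 19 genes were rhythmic in WT (37% of all genes met them), 13 in ΔRRE (35.4% of all) and 12 in both (2580 of the 11244 genes tested met them in both). The count in WT was 7 without WT CT2 replicate 1 or without WT CT18 replicate 2 (6.85% and 8.40% of all genes). With time as a factor, which assumes no wave, it was 2 (3.21% of all genes). The count in ΔRRE was 1 without ΔRRE CT6 replicate 1, CT10 replicate 2, either CT14 liver, CT18 replicate 1 or CT22 replicate 2. In these fits 2.65% to 3.49% of all genes were called. The joint count was 9 without the 2 erythroid-rich libraries (15.1% of all genes).

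**Figure D1:**
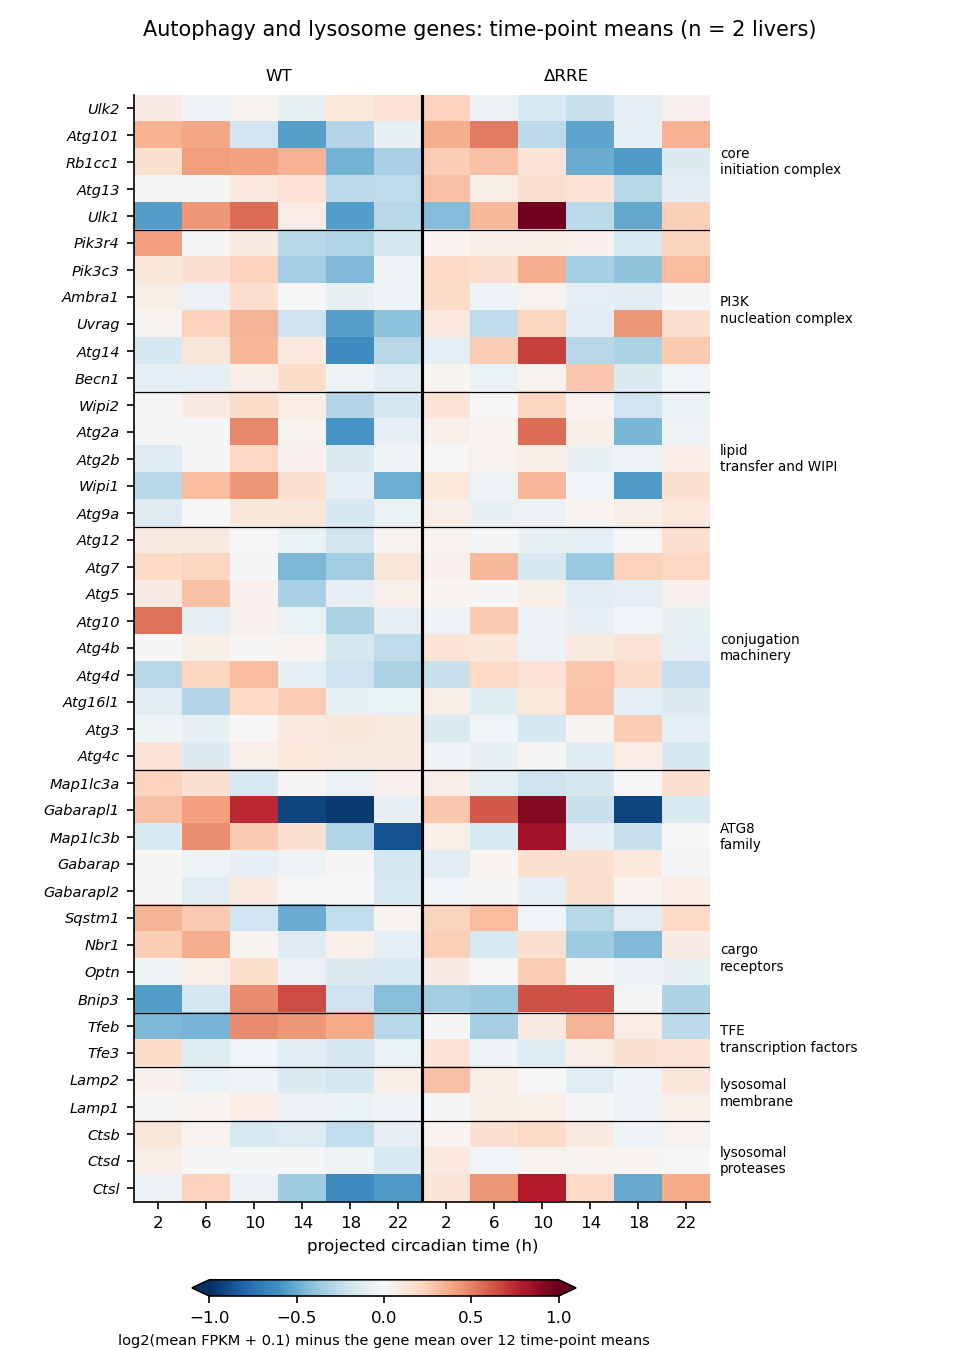
Heat map of the 41 genes (rows, grouped by role and ordered by peak time within a role) over the 6 time points of each genotype (columns), with colour for log2(mean FPKM + 0.1) minus the mean of that gene over the 12 columns, each column being the mean of 2 livers. *Gabarapl1*, *Ulk1* and *Bnip3* have strong bands in both genotypes, and most of the conjugation genes stay pale.

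In the initiation complex, 3 of 5 genes were called rhythmic in WT and 2 by the joint test. *Atg101*, which encodes the subunit that stabilises ATG13, had the smallest p of all 41 genes in the joint and the ΔRRE test. Its WT livers were at 35.2 and 23.7 FPKM at CT2, 27.4 and 32.97 at CT6, 22.4 and 17.97 at CT10, 16.2 and 15.4 at CT14, 21.6 and 15.9 at CT18, and 22.01 and 21.8 at CT22. The ΔRRE livers were at 29.99 and 29.5 FPKM at CT2, 31.9 and 34.3 at CT6, 17.8 and 20.6 at CT10, 13.9 and 18.1 at CT14, 23.02 and 20.6 at CT18, and 28.7 and 30.1 at CT22. In both genotypes the CT2 and CT6 livers were above both CT14 livers. The fitted peak-to-trough ratio was 1.88 in WT and 2.01 in ΔRRE, with peaks at CT3.4 ± 0.7 and CT2.0 ± 0.6 (SE, n = 12 each, limma adjusted p of 0.0129 and 0.00859).

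*Rb1cc1* encodes FIP200, the scaffold of the same complex. In WT its livers were at 8.02 and 9.51 FPKM at CT2, 9.61 and 11.4 at CT6, 9.80 and 10.9 at CT10, 10.2 and 9.82 at CT14, 6.29 and 4.96 at CT18, and 7.21 and 5.25 at CT22. In ΔRRE they were at 12.2 and 6.43 FPKM at CT2, 9.81 and 9.46 at CT6, 6.62 and 10.6 at CT10, 4.46 and 6.60 at CT14, 5.62 and 4.93 at CT18, and 8.28 and 5.96 at CT22. The WT level held through CT14 and was lower at CT18 and CT22, whereas both ΔRRE livers at CT14 were already below both WT livers at that time. The wave was of like size (0.47 and 0.46 ± 0.11 log2 units) and peaked at CT8.3 ± 0.9 in WT and CT4.9 ± 0.9 in ΔRRE, and the test of a different wave gave an unadjusted p of 0.0538 and an adjusted p of 1 (limma). The joint test called it at 0.00367, and it stayed called when any 1 of the 24 libraries was left out. With time as a factor its joint adjusted p was 0.0874 (limma).

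*Ulk1* encodes the kinase that starts autophagy and is the target of mTORC1 and AMPK. The WT livers were at 12.6 and 9.86 FPKM at CT2, 20.98 and 23.7 at CT6, 31.8 and 16.97 at CT10, 16.4 and 18.4 at CT14, 11.1 and 11.4 at CT18, and 14.4 and 12.7 at CT22, and the ΔRRE livers at 13.9 and 10.5 FPKM at CT2, 19.8 and 21.7 at CT6, 33.9 and 30.6 at CT10, 17.2 and 10.2 at CT14, 9.61 and 13.5 at CT18, and 20.7 and 18.4 at CT22. The CT10 livers were the highest of the ΔRRE series, at more than 30 FPKM, while the WT pair at CT10 was far apart. Its amplitude was 0.54 ± 0.17 log2 units in WT and 0.46 ± 0.17 in ΔRRE, with adjusted p-values of 0.0332 and 0.292 (limma), and the WT call was lost without 7 of the 12 WT livers, most so without CT10 replicate 1 (0.0888). *Atg13*, whose product links the kinase to FIP200, lay between 9.21 and 18.1 FPKM over all libraries, with a joint adjusted p of 0.217. The related kinase gene *Ulk2* lay between 9.08 and 15.7 FPKM and had 0.264.

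Of the 6 PI3K complex genes, none was called in either genotype alone and *Pik3c3* was called jointly. *Pik3c3* encodes VPS34, the lipid kinase itself. WT livers were at 3.71 and 3.87 FPKM at CT14 and at 3.91 and 3.13 at CT18, and ΔRRE livers at 3.77 and 3.83 and at 3.74 and 3.51. These were below every liver of the other 4 time points in the same genotype. Its amplitude was 0.32 log2 units in WT and 0.32 in ΔRRE (SE 0.09), and the joint adjusted p of 0.0146 stayed under 0.05 without any 1 library. *Becn1*, the Beclin 1 gene, showed little range, from 12.1 to 19.7 FPKM over all 24 livers, with a joint adjusted p of 0.529. *Atg14*, which directs VPS34 to the forming autophagosome, had a WT amplitude of 0.40 ± 0.13 and an adjusted p of 0.0537 in WT and 0.0861 jointly. *Uvrag* was the 1 gene with an unadjusted p under 0.05 for a different wave (0.0361, adjusted 1, limma). Its fitted peaks were at CT7.1 ± 1.3 in WT and CT19.2 ± 3.5 in ΔRRE, and the pair of ΔRRE livers at CT18 were at 4.38 and 9.14 FPKM.

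In the lipid transfer and WIPI group, *Wipi1* and *Wipi2* were called in WT and jointly. Both encode readers of the lipid made by VPS34. *Wipi1* ranged from 3.81 to 8.27 FPKM in WT, highest at CT10 (7.63 and 8.27) and lowest at CT22 (3.81 and 4.46), and its WT amplitude was 0.45 against 0.21 in ΔRRE (SE 0.12 each). The difference of its 2 waves had an unadjusted p of 0.0844, and its joint call was lost without 17 of the 24 libraries, most so without WT CT22 replicate 1 (0.112). *Wipi2* moved less, from 12.4 to 18.2 FPKM in WT and from 13.7 to 20.3 in ΔRRE, with an amplitude of 0.21 ± 0.06 in WT. Its WT adjusted p of 0.0493 was above 0.05 whichever of the 12 WT livers was left out (up to 0.105 without CT10 replicate 2), and its joint one of 0.0297 was lost without 7 of the 24 (up to 0.0626 without WT CT18 replicate 1). *Atg2a*, a lipid transfer protein gene and one of the 3 with the lowest mean, was highest at CT10 and lowest at CT18 in both genotypes, at 5.64 and 6.31 against 2.66 and 2.92 FPKM in WT and 6.59 and 6.04 against 2.56 and 3.59 in ΔRRE. Its joint adjusted p was 0.0528. *Atg9a*, the scramblase gene, stayed between 11.7 and 18.9 FPKM and had 0.516.

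Among the 9 conjugation genes, *Atg7* was called in WT and jointly and *Atg4d* jointly. *Atg7* encodes the E1-like enzyme that serves both conjugation systems. The WT livers were at 12.5 and 12.6 FPKM at CT2, 13.8 and 11.5 at CT6, 10.7 and 10.9 at CT10, 7.42 and 8.52 at CT14, 8.93 and 8.22 at CT18, and 11.2 and 12.6 at CT22. Those of ΔRRE were at 12.4 and 10.1 FPKM at CT2, 10.3 and 17.1 at CT6, 8.59 and 10.9 at CT10, 8.18 and 8.68 at CT14, 12.99 and 12.8 at CT18, and 12.6 and 12.7 at CT22. CT14 was low in both genotypes, but at CT18 both ΔRRE livers were above both WT livers. The amplitude was 0.35 in WT and 0.23 in ΔRRE (SE 0.09), with a joint adjusted p of 0.0219 that became 0.0557 without WT CT14 replicate 1 and stayed under 0.05 without any other single library, and the difference of the waves had an unadjusted p of 0.158 (limma). With time as a factor the joint adjusted p was 0.0605. *Atg4d*, a protease gene of the ATG8 cycle, peaked at CT9.2 ± 1.1 in WT and CT12.5 ± 1.4 in ΔRRE with a joint adjusted p of 0.0318, which was lost without 7 of 24 libraries, most so without WT CT10 replicate 1 (0.0765). *Atg5*, whose product joins ATG12 and ATG16L1, lay within 15.8 to 24.7 FPKM in WT and 16.8 to 20.8 in ΔRRE, with a joint adjusted p of 0.0667. *Atg10*, the E2-like enzyme gene, had the lowest mean of the 41, from 1.14 to 3.79 FPKM, and 0.587. The other 5, *Atg3*, *Atg4b*, *Atg4c*, *Atg12* and *Atg16l1*, had amplitudes of at most 0.21 log2 units in either genotype and were not called.

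The widest daily range was in the ATG8 family, in *Gabarapl1*. WT livers were at 174 and 151 FPKM at CT2, 171 and 182 at CT6, 241 and 203 at CT10, 41.5 and 98.5 at CT14, 80.4 and 56.5 at CT18, and 139.6 and 111 at CT22. ΔRRE livers were at 192 and 129 FPKM at CT2, 251 and 156 at CT6, 279 and 221 at CT10, 123 and 105 at CT14, 77.1 and 63.1 at CT18, and 194 and 45.3 at CT22. CT10 was highest and CT18 low in both genotypes, and the pair of ΔRRE livers at CT22 differed more than 4-fold from each other. The fitted peak-to-trough ratio was 3.19 in WT and 3.28 in ΔRRE, with amplitudes of 0.84 and 0.86 ± 0.21 log2 units, adjusted p-values of 0.0266 and 0.064, and a joint one of 0.00472 that stayed under 0.05 without any 1 library (limma). With time as a factor the joint one was 0.0509. The other 4 members were not called. *Map1lc3b*, which encodes the LC3B protein used as the standard marker of autophagosomes, had wide replicate pairs, such as 14.99 and 30.1 FPKM at CT2 in WT and 62.9 and 27.4 at CT10 in ΔRRE. Its WT amplitude was 0.56 ± 0.21 with an adjusted p of 0.0945. Its transcripts share near-identical stretches with those of 64 other genes, so its values are less certain. *Map1lc3a* stayed between 16.9 and 29.3 FPKM, *Gabarap* between 93.2 and 140.3 and *Gabarapl2* between 24.7 and 32.2.

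Among the cargo receptors, *Sqstm1* and *Bnip3* were rhythmic in both genotypes, with peaks far apart in the day. *Sqstm1* encodes p62, which binds ubiquitinated cargo and is itself degraded by autophagy. In WT it was at 222 and 171 FPKM at CT2, 184 and 187 at CT6, 155 and 116 at CT10, 122 and 98.4 at CT14, 127 and 134 at CT18, and 170.0 and 146 at CT22. In ΔRRE it was at 186 and 175 FPKM at CT2, 204 and 180.0 at CT6, 169.9 and 134 at CT10, 138 and 117 at CT14, 146 and 141 at CT18, and 182 and 175 at CT22. All livers at CT2 and CT6 were above all livers at CT14 within each genotype. Its peaks were at CT2.8 ± 0.6 and CT2.7 ± 0.9, and its amplitude was 0.41 in WT and 0.28 in ΔRRE (SE 0.06, adjusted p of 0.00821 and 0.0406). The test of a different wave had an unadjusted p of 0.397.

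*Bnip3* encodes a mitochondrial outer membrane receptor for mitophagy. WT livers were at 65.1 and 58.1 FPKM at CT2, 90.2 and 70.3 at CT6, 116 and 136 at CT10, 152 and 133 at CT14, 83.5 and 73.5 at CT18, and 74.2 and 60.4 at CT22, and ΔRRE livers were at 87.8 and 54.7 FPKM at CT2, 83.6 and 56.3 at CT6, 157 and 125 at CT10, 163 and 120.1 at CT14, 99.2 and 80.2 at CT18, and 79.03 and 67.1 at CT22. In each genotype all 4 livers at CT10 and CT14 were above all 8 livers of the other times. The peak-to-trough ratio was 2.34 in WT and 2.24 in ΔRRE, and the peaks were at CT12.3 ± 0.7 and CT12.9 ± 0.7 (limma adjusted p of 0.00164 and 0.0369). *Atg101*, *Sqstm1* and *Bnip3* kept their joint call in all 40 alternative analyses. In ΔRRE alone, without the 2 erythroid-rich libraries, the adjusted p of *Bnip3* was 0.191. Its ΔRRE call was lost without 8 of the 12 ΔRRE livers, most so without CT14 replicate 1 (0.0988), and *Sqstm1* lost its ΔRRE call without 10 of the 12 ΔRRE livers, most so without CT14 replicate 2 (0.103). Stretches of the *Bnip3* transcript of up to 858 bases recur in 4 other annotated genes, none of which averaged more than 0.739 FPKM. *Optn* and *Nbr1*, the other receptor genes, had joint adjusted p-values of 0.135 and 0.134.

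**Figure D2:**
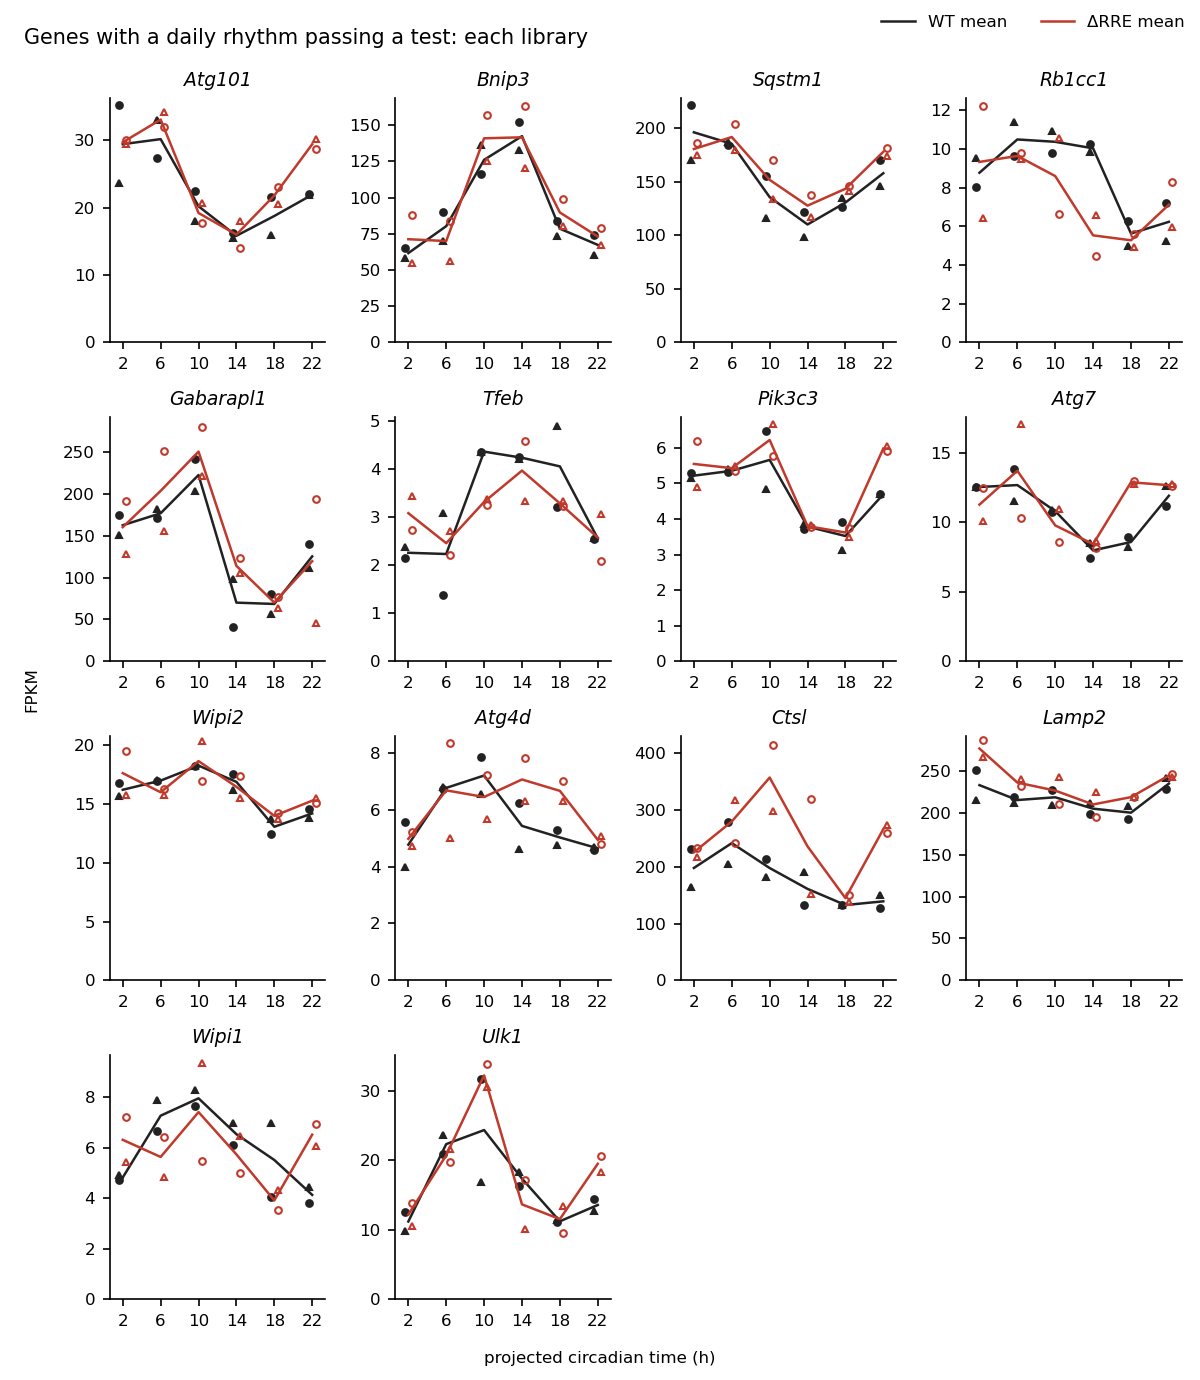
FPKM of each library (vertical axis, starting at 0) against projected circadian time for the 14 genes called by the joint or the WT test. Black symbols are WT and open red symbols ΔRRE, circles are replicate 1 and triangles replicate 2, and lines join the means of 2 livers. *Bnip3* is highest at CT10 and CT14 in both genotypes, *Atg101* and *Sqstm1* are lowest at CT14, and *Ctsl* is higher in ΔRRE than in WT at CT10 and CT22.

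*Tfeb* was the TFE gene called, although its level was low. Its WT livers were at 2.14 and 2.37 FPKM at CT2, 1.38 and 3.07 at CT6, 4.36 and 4.35 at CT10, 4.25 and 4.21 at CT14, 3.21 and 4.89 at CT18, and 2.55 and 2.55 at CT22. Its ΔRRE livers were at 2.73 and 3.42 FPKM at CT2, 2.21 and 2.70 at CT6, 3.25 and 3.37 at CT10, 4.58 and 3.34 at CT14, 3.23 and 3.33 at CT18, and 2.07 and 3.07 at CT22. In WT both CT10 and CT14 pairs were above every CT2, CT6 and CT22 liver, whereas in ΔRRE these times overlapped. The amplitude was 0.57 in WT and 0.25 in ΔRRE (SE 0.12), with peaks at CT14.3 ± 0.8 and CT14.2 ± 1.9, a joint adjusted p of 0.0136 that stayed under 0.05 without any 1 library, and an unadjusted p of 0.196 for a different wave. With time as a factor the joint adjusted p was 0.105 (limma), and the joint call was kept in 3 of the 6 fits without a time point. The WT call alone was lost without 9 of the 12 WT livers, most so without CT2 replicate 1 (0.081). *Tfe3* stayed between 4.41 and 7.23 FPKM over all livers, with a joint adjusted p of 0.557.

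Per length of transcript, the highest means of the set were those of the lysosomal genes *Lamp1*, *Lamp2* and *Ctsl*. *Lamp1*, a major glycoprotein of the lysosomal membrane, stayed within 235 to 271 FPKM over all 24 livers and had an amplitude of 0.06 log2 units in WT and 0.04 in ΔRRE (SE 0.04, joint adjusted p of 0.557). *Lamp2*, whose product is needed for fusion and chaperone-mediated autophagy, was called jointly at 0.0424, peaked at CT2.0 in both genotypes and had an amplitude of 0.10 in WT and 0.17 in ΔRRE (SE 0.05). That call was lost without 16 of the 24 libraries, most so without ΔRRE CT2 replicate 1 (0.114). *Ctsl*, the gene of the cysteine protease cathepsin L, was called in WT (0.0193) and jointly (0.0341), with waves of 0.42 and 0.40 ± 0.13 log2 units that peaked at CT6.5 and CT7.0. Its joint call was lost without 9 of the 24 libraries, most so without WT CT6 replicate 1 (0.0737). *Ctsb* and *Ctsd*, for cathepsins B and D, had joint adjusted p-values of 0.277 and 0.967.

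Over the 41 genes the median amplitude was 0.206 log2 units in WT and 0.171 in ΔRRE, beside 0.198 and 0.188 over all genes tested. In ΔRRE the fitted wave was smaller in 31 of the 41, beside 6035 of 11244 in all. By role, it was lower for 8 of 9 conjugation genes, 5 of 6 PI3K complex genes and all 5 lipid transfer and WIPI genes, and for 2 of 5 ATG8 genes. The largest falls in fitted amplitude among called genes were in *Tfeb* (from 0.57 to 0.25) and *Wipi1* (from 0.45 to 0.21). Both were called in WT and not in ΔRRE, so choosing among called genes favours a smaller wave in ΔRRE. *Map1lc3b* (from 0.56 to 0.26) and *Uvrag* (from 0.46 to 0.18), which were not called, fell by more than *Wipi1*. None of these differences passed its own test after adjustment. *Gabarapl1*, *Bnip3*, *Atg101*, *Rb1cc1*, *Ctsl* and *Pik3c3* had amplitudes within 0.05 log2 units of each other in the 2 genotypes.

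**Figure D3:**
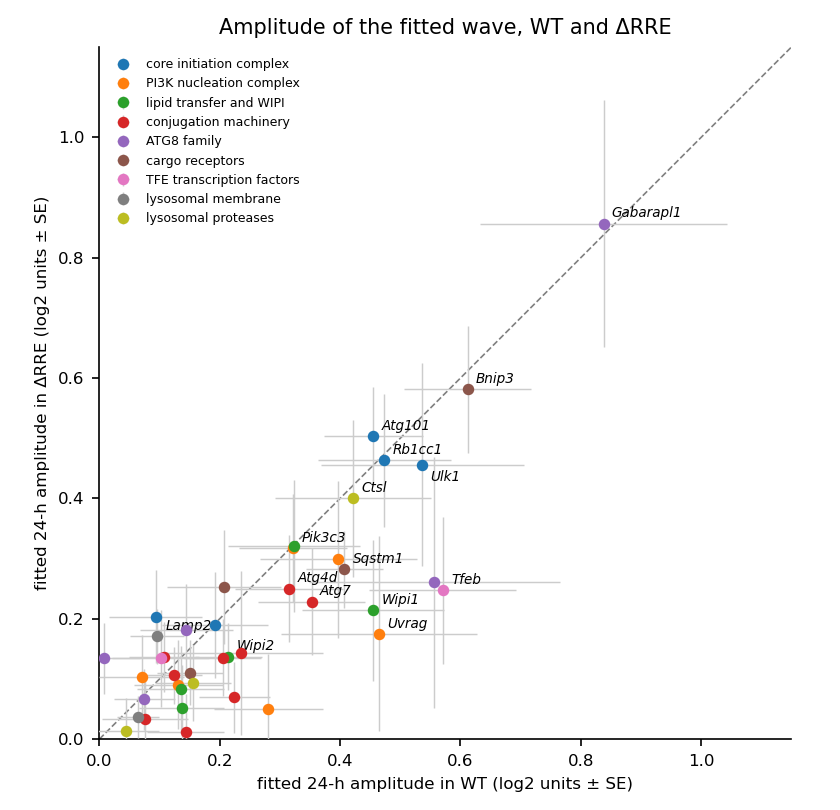
Fitted 24-h amplitude of each of the 41 genes in ΔRRE (vertical axis) against WT (horizontal axis), both in log2 units with SE, coloured by role, and the dashed line marks equal amplitudes. Of the 41 points, 31 lie below the line, and *Gabarapl1* and *Bnip3* lie near it.

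The 13 jointly called genes peaked in the first part of the circadian day more than in its second. By the wave shared by both genotypes, 5 peaked between CT0 and CT6 (*Lamp2*, *Atg7*, *Atg101*, *Sqstm1* and *Pik3c3*), 6 between CT6 and CT12 (*Gabarapl1*, *Rb1cc1*, *Ctsl*, *Wipi2*, *Wipi1* and *Atg4d*), 2 between CT12 and CT18 (*Bnip3* and *Tfeb*) and none between CT18 and CT24. Over all 2107 jointly called genes the shares were 32.8%, 27.6%, 19.2% and 20.4%. The ΔRRE peak was earlier than the WT peak in 9 of the 13 and later in 4, by at most 3.96 h earlier and 3.36 h later. Over the 2107 genes it was earlier in 925 and later in 1182. Among the 9, the shifts of *Sqstm1*, *Lamp2* and *Tfeb* were -0.06, -0.03 and -0.15 h, smaller than the SEs of their peaks. Of the 13, only *Atg101*, *Sqstm1* and *Bnip3* had a rhythm called in ΔRRE, and none had a different wave after adjustment. These counts therefore do not show a shift of the set.

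**Figure D4:**
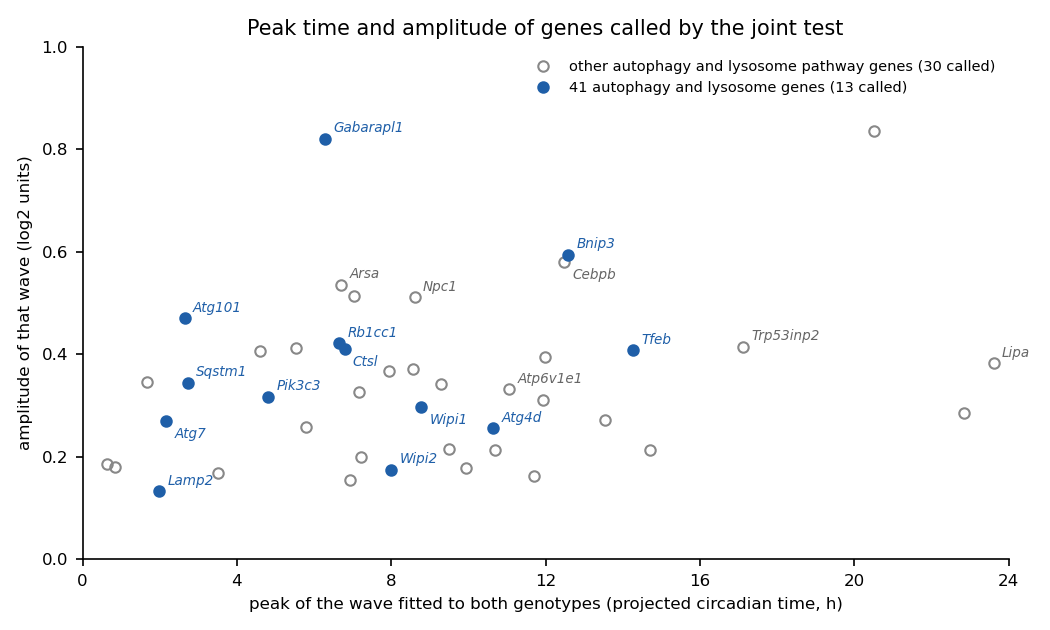
Peak time (horizontal axis, projected CT in h) and amplitude (vertical axis, log2 units) of the wave fitted to both genotypes, for the 13 autophagy and lysosome genes called by the joint test (filled) and the 30 other pathway genes called (open, 6 of the 8 with the smallest p named). The filled points lie between CT2 and CT15, and *Gabarapl1* has the largest amplitude among them.

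The genotypes were then compared in level, with time as a factor. None of the 41 genes differed at an adjusted p under 0.05 (limma, 0% of all genes tested), and 3 had an unadjusted p under 0.05, *Ctsl*, *Lamp2* and *Ctsb*, all higher in ΔRRE (7.32%, against 7.16% of all genes higher and 1.75% lower at that p). The difference was positive for 30 of the 41 (73.2%, against 65.5% of all genes), with a median of 0.059 log2 units beside 0.037 over all genes. After rescaling the libraries by the median of ratios it was positive for 23 of the 41, beside 48.8% of all genes, with a sign change in *Atg2b*, *Atg9a*, *Atg12*, *Atg16l1*, *Becn1*, *Lamp1* and *Wipi2*, which lay between 0.01 and 0.04 log2 units at the deposited scale. At that scale *Ctsl* was higher and *Atg4c* and *Nbr1* were lower in ΔRRE at an unadjusted p under 0.05.

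*Ctsl* had the widest separation. The WT livers were at 231 and 164 FPKM at CT2, 279 and 204 at CT6, 214 and 182 at CT10, 132 and 189.9 at CT14, 132 and 133 at CT18, and 128 and 150.4 at CT22. The ΔRRE livers were at 233 and 218 FPKM at CT2, 242 and 317 at CT6, 415 and 299 at CT10, 319 and 153 at CT14, 151 and 139 at CT18, and 259 and 273 at CT22. At CT10, CT18 and CT22 both ΔRRE livers were above both WT livers, by the most at CT22, and at CT2, CT6 and CT14 the genotypes overlapped. The mean was 178 ± 47.5 FPKM in WT and 251 ± 81.2 in ΔRRE (SD, n = 12 each, over all times), a fitted ratio on the log scale of 1.38 with a 95% confidence interval of 1.16 to 1.65, and the limma p was 0.00107 unadjusted and 0.332 adjusted. The 2 erythroid-rich libraries held the highest and second highest *Ctsl* values of all 24, and without them the log2 difference was 0.35 in place of 0.47, with an unadjusted p of 0.00474. Macrophages also carry much cathepsin L. On the log scale, 5 of the 6 Kupffer cell markers were higher in ΔRRE, none at an unadjusted p under 0.05 (limma). By mean FPKM, *Cd5l*, *Marco* and *Adgre1* were lower in ΔRRE (12.9, 5.15 and 1.82, against 14.1, 7.44 and 1.85 in WT). *Clec4f*, *Vsig4* and *Cd68* were higher by that measure. The sum of the 6 markers ran from 13.3 to 94.4 FPKM in WT and from 27.2 to 66.3 in ΔRRE, and none was listed at 0. Among erythroid and blood leukocyte markers the ratio of ΔRRE to WT was 1.59 for *Hbb-bs*, 1.61 for *Hba-a1* and 2.35 for the neutrophil gene *S100a9*, with unadjusted p-values of 0.0379, 0.0263 and 0.02 and adjusted ones of 0.531, 0.488 and 0.465 (limma). The other erythroid marker, *Alas2*, had a ratio of 1.06 (limma unadjusted p of 0.53). The other leukocyte markers averaged under 1 FPKM and were not tested. Of these, *Ptprc* was lower in ΔRRE (mean of 0.762 FPKM against 0.862 in WT), and *S100a8*, *Cd3e* and *Cd79a* were higher. The erythroid sum ran from 314 to 977 FPKM in WT and from 349.7 to 2819 in ΔRRE, and the sum of the 5 leukocyte markers from 1.09 to 8.48 and from 1.09 to 12.6, with medians of 1.84 and 3.85, and 4 of the 5 were listed at 0 in at least 1 library. The part of these cells in the result was not tested. *Ctsl* kept its unadjusted p under 0.05 without any 1 library (at most 0.00262), and its transcripts share stretches of up to 191 bases with those of 22 other genes, of which the most abundant averaged 70.6 FPKM.

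*Lamp2* averaged 218 ± 16.8 FPKM in WT and 235 ± 24.8 in ΔRRE (SD, n = 12 each), a ratio of 1.08 (limma p of 0.0224 unadjusted and 0.475 adjusted, and 0.146 unadjusted after rescaling). Both ΔRRE livers were above both WT livers at CT2 (286 and 267 against 251 and 215 FPKM), CT6, CT18 and CT22, and the genotypes overlapped at CT10 and CT14. *Ctsb* averaged 87.7 ± 8.62 and 97.2 ± 13.3 FPKM, a ratio of 1.10 (p of 0.0476 and 0.55). Its unadjusted p was above 0.05 without 18 of the 24 single libraries, most so without ΔRRE CT10 replicate 1 (0.103), and that of *Lamp2* without 1, WT CT2 replicate 2 (0.0505). The ΔRRE pair of *Ctsb* was above the WT pair at CT6, CT18 and CT22. Its 2 highest livers were again ΔRRE CT10 replicate 1 at 126 FPKM and ΔRRE CT14 replicate 1 at 115, and without them its log2 difference was 0.059 in place of 0.14 with an unadjusted p of 0.228. For the rest of the set the 95% intervals of the log2 difference all included 0. They were narrow for *Lamp1* (-0.05 to 0.10), *Becn1* (-0.10 to 0.17) and *Atg5* (-0.14 to 0.10) and wide for *Map1lc3b* (-0.34 to 0.56), *Gabarapl1* (-0.28 to 0.53) and *Uvrag* (-0.18 to 0.59).

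**Figure D5:**
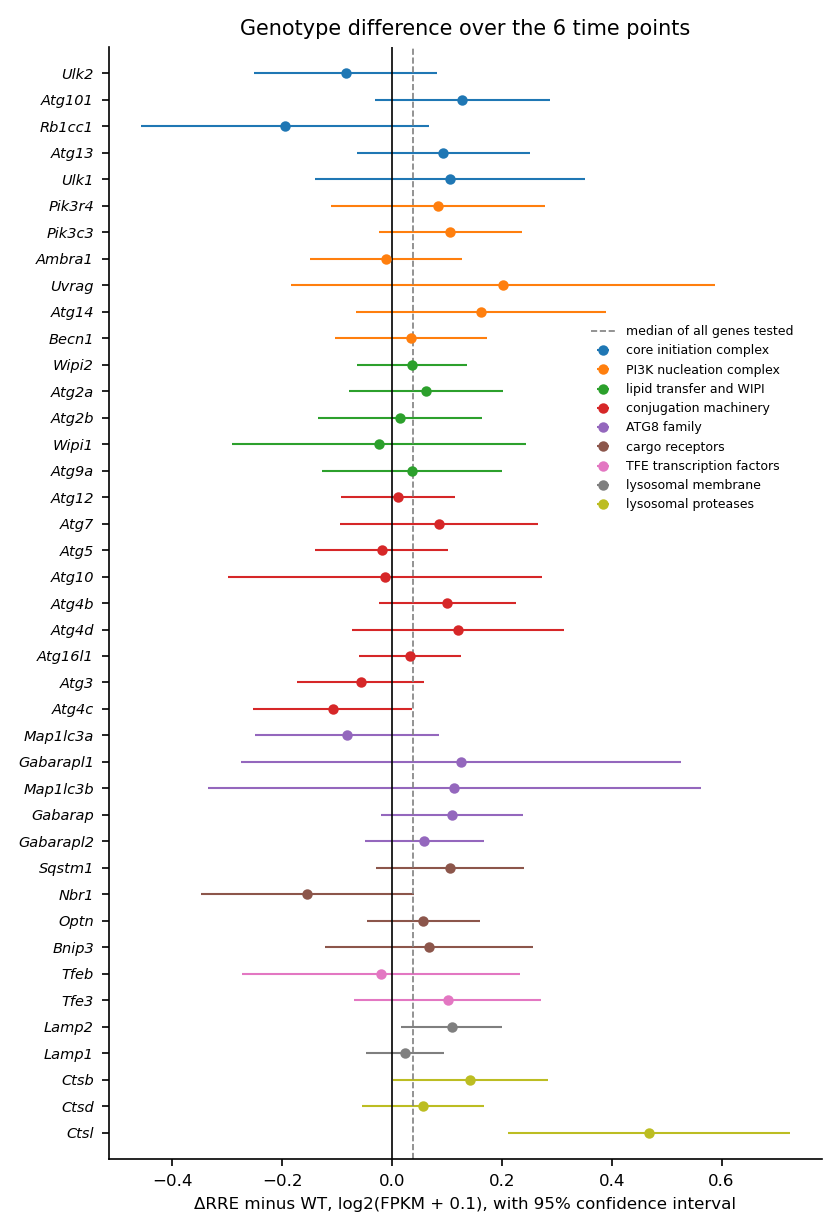
Difference between ΔRRE and WT in log2(FPKM + 0.1) over the 6 time points for each of the 41 genes (points) with its 95% confidence interval (bars), coloured by role. The solid line marks 0 and the dashed line the median of all 11244 genes tested, and *Ctsl*, *Lamp2* and *Ctsb* have intervals that do not include 0.

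Beyond the 41, 123 other genes of the pathway were listed and 119 averaged at least 1 FPKM. The joint test called 30 of them (25.2%, against 18.7% of all genes), the WT test 16 and the ΔRRE test 5, and none had a different wave or level after adjustment. By list, the joint calls were 2 of 15 V-ATPase subunits, 8 of 31 other lysosomal hydrolases, 2 of 14 other lysosomal membrane and sorting genes, 5 of 25 other autophagy factors, 10 of 28 mTORC1 and AMPK regulators and 3 of 6 other transcriptional regulators. Among the 8 with the smallest p were *Lipa*, *Atp6v1e1*, *Arsa*, *Trp53inp2*, *Npc1* and *Cebpb*. *Lipa*, the acid lipase that frees fatty acids and cholesterol in the lysosome, peaked at CT23.5 in WT and CT23.7 in ΔRRE, with peak-to-trough ratios of 1.74 and 1.66 and adjusted p-values of 0.0188 and 0.012. *Atp6v1e1*, a subunit of the proton pump that acidifies lysosomes, peaked at CT10.7 and CT11.4, with ratios of 1.54 and 1.64. *Npc1*, the lysosomal cholesterol exporter, peaked at CT9.1 and CT8.1 with ratios of 2.07 and 2.03. The sulfatase gene *Arsa* peaked at CT6.7 by the shared wave, the autophagy factor gene *Trp53inp2* at CT17.1, and *Cebpb*, a transcription factor gene, at CT12.5.

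In level, 2 of these lists had the largest shares of genes higher in ΔRRE at an unadjusted p under 0.05, against 7.16% of all genes. They were the other lysosomal membrane and sorting genes, with 4 of 14 (28.6%, and 0 of 14 after rescaling), and the other lysosomal hydrolases. Of the hydrolases 9 of 31 were higher (29.03%) and none lower, among them *Ctsa*, *Ctsc*, *Ctsz*, *Glb1*, *Hexa*, *Ppt1* and *Psap*. None had an adjusted p under 0.05, and the smallest was 0.332 for *Ctsz*. The largest difference was in *Ctsc*, the cathepsin C gene, at a ratio of 1.35 (1.08 to 1.69). After rescaling, 7 of the 31 were higher at that p, beside 3.73% of all genes higher, and without the 2 erythroid-rich libraries 6 were, beside 5.84%. Over all 119 genes the difference was positive for 99 at the deposited scale (83.2%, against 65.5% of all genes). After rescaling it was positive for 76, beside 48.8% of all genes. At an unadjusted p under 0.05, 18 were higher at the deposited scale (15.1%, against 7.16%). After rescaling 8 were higher (6.72%, against 3.73%), and without the 2 erythroid-rich libraries 10 were (8.40%, against 5.84%). None was lower at that p in these 3 settings.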

How the data were processed

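Poly(A) RNA of 24 mouse livers (WT and ΔRRE, 6 times, n = 2) was sequenced as 150-bp paired reads with a directional kit. The submitters' processing notes name Trimmomatic 0.39, HISAT2 2.1.0, StringTie 1.3.5 and mm10, and the annotation and strand setting are not given in the sources used here. The authors deposited FPKM values per gene and library, without counts, so depth is unknown and no counting interval was computed. The deposited table of the whole series was not used.

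The 41 genes and the other pathway lists were chosen with earlier results of these data known. Genes averaging 1 FPKM or more were tested on log2(FPKM + 0.1) with limma 3.58.1 (R 4.3.3, intensity trend), which understates changes of low genes. A 24-h cosine wave was tested in WT, in ΔRRE, jointly over both (4 coefficients) and for a difference between them, and genotype was tested with time as a factor. P-values were two-sided and adjusted by the Benjamini-Hochberg method over all genes tested. They rest on the spread of livers around each fitted model. For the wave fits that spread also holds departures of the time points from a cosine. For the genotype test it also holds genotype differences that vary with time. The amplitude is that of the wave, from its mean to its peak. The 3 criteria were a harmonic p under 0.3 (the study's own periodicity program was not run here), a ratio of the highest to the lowest time-point mean over 1.5, and no time-point SD above 1.5 times the difference of those means. The fits were tested on simulated data. Genes were named if called in any test, if they were among 18 core genes, if they had one of the 3 highest or lowest means, or if their genotype p was under 0.05 unadjusted, and *Uvrag* and a few others were singled out after their values were seen. The counts include a few pathway genes that are not reported by name here. Alternatives were pseudocounts of 0.01 and 1, no filter or 5 FPKM, rescaling by the median of ratios, no trend, a shared spread, a shared wave, time as a factor, a replicate block, and leaving out each library or time point. Leaving out the 2 erythroid-rich libraries was chosen after seeing the data. Promoters came from RefSeq, and gene positions from GENCODE M21.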

Additional observations from a re-analysis of the deposited data

How the results depend on the processing

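The count of genes rhythmic in WT (11) was 4 with no filter on low values and 2 with time as a factor. It was 7 without time point CT2, 6 without CT6, CT10 or CT22, and 5 without CT14 or CT18. The WT calls over all genes fell as well, from 1157 of 11244. They were 519 of 28380 with no filter and 361 of 11244 with time as a factor. Of the 11244 genes, 625 were called without CT2, and 731, 524 and 671 without CT6, CT10 and CT22. Without CT14 and CT18 they were 567 and 711. Over the fits that left out 1 library the WT count among the 41 lay between 7 and 10 (6.58% to 9.06% of all genes). The count in ΔRRE (3) was 1 with no filter or no intensity trend and 6 in 1 fit with a shared spread (0.694%, 3.50% and 8.51% of all genes). It was 1 without CT10 or CT18 and 0 without CT14 (2.29%, 2.13% and 1.26% of all genes). Without the 2 erythroid-rich libraries it was 1 (1.55%), and without 1 library it lay between 1 and 3 (2.65% to 4.93%). The joint count (13) was 20 for 1 wave shared by both genotypes and 7 with time as a factor (30.6% and 9.67% of all genes). It was 6 without CT10 or CT14 and 4 without CT18 (10.4%, 10.2% and 10.8% of all genes). Without 1 library it lay between 9 and 14 (15.6% to 19.3%). With a ratio of means over 2, the 3 criteria were met by 5 genes in WT, in place of 19, and by 7 in ΔRRE, in place of 13. Over all genes the shares at that ratio were 15.8% in WT and 16.0% in ΔRRE. The fits that leave livers out had fewer samples, and the fit with no filter tested 28380 genes. The cause of these shifts was not tested. The counts of called differences in wave and in level stayed at 0 in every alternative run, and the level differences of *Ctsl*, *Lamp2* and *Ctsb* kept their sign. After rescaling, 7 other genes of the 41 changed from slightly higher to slightly lower in ΔRRE.

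Same-numbered livers were not treated as pairs in the main fits. Over 66 pairs of groups the correlation of the deviations of same-numbered livers lay between -0.138 and 0.305 (median 0.067). Of these, 20 were over 0.1 and 2 under -0.1, so same-numbered livers leaned weakly toward deviating together, and the reason was not tested. With a replicate block the counts were 10 in WT, 4 in ΔRRE and 13 jointly (10.6%, 4.94% and 19.7% of all genes). *Wipi2* lost its WT call in that fit (limma adjusted p = 0.0605).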
